A study of Zea mays with 24 samples.

Results

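Genes whose transcripts were most confined to segment -1 of the maize leaf were examined, 150 of the 39634 genes listed. Segment -1 lies just below the point where leaf 2 emerges from the whorl, where the blade turns from importing to exporting sugar. The members were chosen by level. For each gene the mean of the 2 group values was taken at each segment, genes with a failed or overloaded test were set aside, and a mean of at least 10 FPKM at -1 was required. FPKM is a read fragment count divided by transcript length and by the size of the library. The 9049 genes left were ranked by the log2 ratio of their mean at -1 to their largest mean elsewhere, with 1 FPKM added to both, and the top 150 were kept.

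The libraries came from leaf 2 of W22 maize seedlings at 9 days of age, either dct2-1 mutants or wild type, with 3 libraries per genotype and segment and 15 plants pooled in each. dct2-1 is a mutant allele of pDCT2, a gene for a dicarboxylate transporter of the plastid. Both genotypes share the inbred background and a growth chamber kept at 28 °C and 40% humidity. The chamber was lit for 16 h a day at 500 µmol per square metre per second. Segment -4 is the base of the blade, which does not photosynthesise, +4 is lit mid-leaf tissue and +10 is the tip. The authors' deposited tables, 1 per segment, give 1 FPKM value for each of 2 groups, named q2 and q1, and do not say which of them is the mutant. Directions are therefore given for q2 relative to q1, and no genotype is assigned to either. Wherever segments are set side by side, q2 is taken to be the same genotype in each of the 4 tables, which they do not state.

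All levels and adjusted p-values below are the authors' own, as each segment's deposited table lists them, and a gene was called at an adjusted p under 0.05. Values after ± are the standard error of the log2 change of q2 over q1 that the deposited statistic implies. The deposited p-values were mostly smaller than a normal reading of that statistic would give, so a call can stand beside a wide error. There is no value per library, so no SD can be given, and read depth is unknown. The targeted gene pDCT2 (GRMZM2G086258) was listed in the authors' deposited tables at 7.84, 12.5, 8.91 and 9.50 FPKM in q2 at segments -4, -1, +4 and +10, against 37.8, 657, 633 and 310.4 FPKM in q1. It was called lower in q2 in all 4 tables, with log2 changes of -2.27 ± 0.27, -5.72 ± 0.35, -6.15 ± 0.34 and -5.03 ± 0.29.

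A grass leaf grows from its base, so its segments form a series of ages, from dividing and elongating cells at the base to mature cells at the tip. In the transition zone of the maize leaf elongation comes to an end, chloroplasts mature and secondary walls are laid down and lignified. Laccases and peroxidases act late in that process, joining lignin precursors in the wall, and wax and cuticle are laid down as the blade is about to be exposed.

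All 150 members were highest at -1 in q2 and all but 1 in q1, which the choice of members largely fixes. Mean levels at -1 ranged from 10.6 to 941 FPKM with a median of 36.7 FPKM, and 32 members were at 100 FPKM or more. The rank value ran from 7.25 for the first member to 2.88 for the last, or 152-fold to 7.35-fold over the next segment. The last 3 members had rank values of 2.91, 2.89 and 2.88 and means at -1 of 48.0, 22.1 and 14.2 FPKM. The 3 genes just outside had 2.85, 2.84 and 2.83, with means of 102.8, 23.7 and 11.8 FPKM. No step in the rank value marks the limit of the list.

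The reference name table matched 100 of the 150 identifiers, and 14 members had a gene symbol. Of these, 4 are laccases: Laccase-13 (2 identifiers), Laccase-17 and lac5. Besides these, cncr2 is a cinnamoyl-CoA reductase gene of lignin precursor synthesis. The others were PRP, a gene for a proline-rich protein, BURP4, a gene of the BURP-domain family, gl4a, named after the wax gene glossy4, fht1, flavanone 3-hydroxylase, cpi2, a cystatin that inhibits cysteine proteinases, AAMT1, anthranilic acid methyltransferase, LPE1, a leaf permease, ZCN6, of the family that includes FLOWERING LOCUS T, and NAC131, of the NAC family of transcription factors. A role cannot be given here for the other members.

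**Figure D1:**
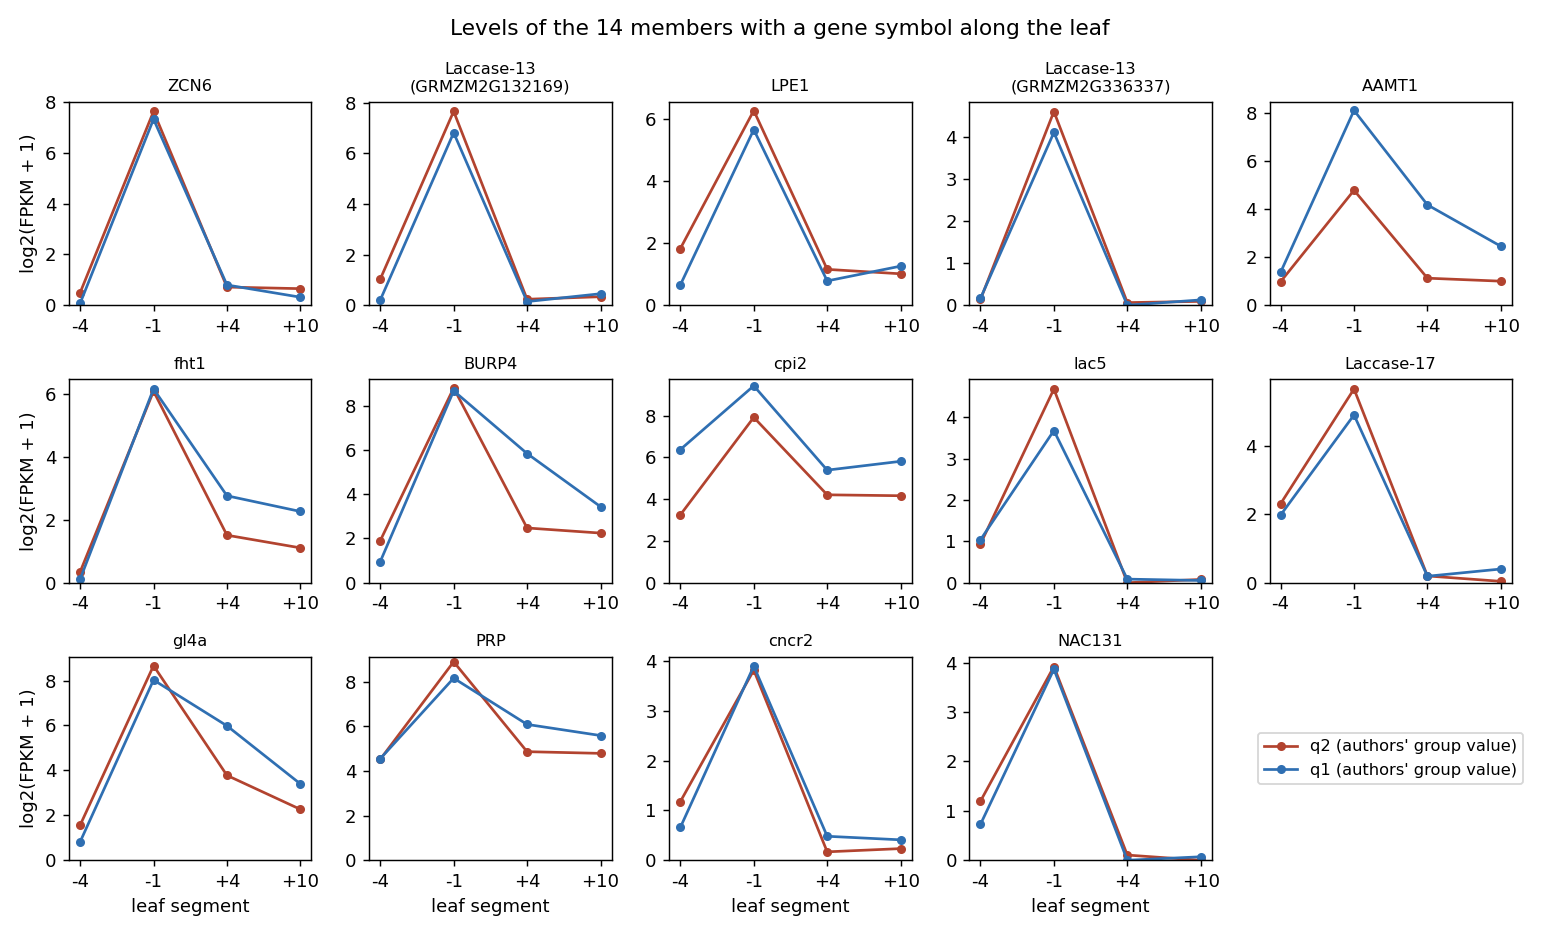
Levels of the 14 members with a symbol, as log2(FPKM + 1), at the 4 leaf segments (horizontal axis), with q2 in red and q1 in blue. Each point is the authors' single group value, and every curve is highest at -1. BURP4, gl4a, fht1 and AAMT1 have a shoulder at +4 that is higher in q1.

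The 4 laccases were low outside segment -1, and 3 of them were called higher in q2 at -1. Laccase-13 (GRMZM2G132169; chromosome 3, 183644920 to 183647436 in the deposited coordinates, whose build the sources used here do not give) had 201 FPKM in q2 and 112 FPKM in q1 at -1 in the authors' deposited table. Its levels at -4, +4 and +10 were 1.04, 0.177 and 0.261 FPKM in q2, against 0.15, 0.104 and 0.368 FPKM in q1. The log2 change at -1 was 0.85 ± 0.39 (the authors' adjusted p = 0.00300, Cuffdiff). This member had rank 5 of the 150.

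Laccase-17 (GRMZM2G072808) had 49.8 FPKM in q2 and 29.0 FPKM in q1 at -1 in the authors' deposited table, a log2 change of 0.78 ± 0.37 (adjusted p = 0.00201, Cuffdiff). The lac5 gene (GRMZM2G367668) had 24.7 FPKM in q2 and 11.8 FPKM in q1, a log2 change of 1.06 ± 0.38. The second Laccase-13 identifier (GRMZM2G336337) had 23.5 FPKM in q2 and 16.3 FPKM in q1 and was not called, with 0.52 ± 0.41 on the log2 scale. At +4 and +10 none of the 4 laccases exceeded 0.368 FPKM in either group, and none was tested there. Laccase-17 and lac5 lie on the same chromosome, 148732 bp apart, and the sources used here do not say how reads shared by related copies were counted.

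All genes named as laccases were also counted at -1, members included. Of 13 identifiers with a laccase name, a list drawn up after the members were known, 6 were tested at -1. In the authors' deposited table (Cuffdiff) 5 of these were higher in q2 and 0 lower, and 6 and 0 at an unadjusted p under 0.05, with a median log2 change of 0.96. These 6 include the 4 members, so the count and the median largely repeat the members' values and are no separate support. Of all 18810 genes tested at -1, 9.48% were called higher in q2 and 8.22% lower, with a median of 0.01. LAC1 (GRMZM5G842071), which is no member because it stayed high along the blade, had 84.5 FPKM in q2 and 33.2 FPKM in q1 at -1. It had 102.6 FPKM in q2 and 66.4 FPKM in q1 at +4.

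The wider lignin and phenylpropanoid list, filled by symbol, had 15 identifiers, 2 of them members (cncr2 and lac5), and shared 7 with the laccases. At -1, 5 of its 11 tested genes were higher in q2 and 0 lower in the authors' deposited table (Cuffdiff), also at an unadjusted p under 0.05, with a median log2 change of 0.33. Of these 5, 3 are laccases and the other 2 are PAL1 and cad1. PAL1, phenylalanine ammonia-lyase and the entry to the pathway, had 240.4 FPKM in q2 and 159 FPKM in q1 at -1. The cinnamyl alcohol dehydrogenase gene cad1 had 13.4 FPKM in q2 and 6.88 FPKM in q1. The member cncr2 did not pass the test at -1, with 13.1 FPKM in q2 and 13.9 FPKM in q1. The 4CL gene (GRMZM2G075333), ranked 160 and so just outside the members, was not called at -1 (log2 change -0.17 ± 0.37). At +4, 6 genes of the list were lower and 1 higher of 7 tested, against 22.8% lower and 19.5% higher of all genes tested there.

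Genes of the secondary wall were measured beside the laccases. The list of cellulose synthases and related wall genes held no member, though 12 of its 19 identifiers were highest at -1. Of 13 tested there, 2 were higher and 2 lower in q2, against 9.48% and 8.22% of all genes tested. At +4, 10 of its 11 tested genes were lower and 1 higher, against 22.8% and 19.5% of all genes tested there. CesA12 (GRMZM2G142898) had 18.8 FPKM in q2 and 11.6 FPKM in q1 at -1 in the authors' deposited table, and was called higher. The bk2 gene, which acts in secondary walls, had 30.2 FPKM in q2 and 22.2 FPKM in q1 and was not called. The 4 secondary wall and xylem markers, with 5 identifiers, summed to 117 FPKM in q2 and 94.4 FPKM in q1 at -1, with 1 called higher and 0 lower. Both cesa11 identifiers were under 0.3 FPKM throughout. In bulk tissue more cells of a type and more RNA per cell cannot be told apart, and the part of vascular cells in the laccase result was not tested.

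Markers of other leaf cell types were checked in the same tables. Dividing-cell markers (4 of 4 matched) were near 0 at -1, summing to 2.94 FPKM in q2 and 3.40 FPKM in q1, and reached 196 FPKM in q2 and 316 FPKM in q1 at -4, where all 4 were lower in q2. Bundle sheath markers (4 of 6 matched) include pDCT2 itself and summed to 8462 FPKM in q2 and 9334 FPKM in q1 at -1. Without pDCT2 the other 3 summed to 8450 FPKM in q2 and 8677 FPKM in q1, and neither me3 nor ssu1 nor rca1 was called. Mesophyll markers (4 of 5 matched, 7 identifiers) summed to 19509 FPKM in q2 and 22580 FPKM in q1, with 1 identifier called higher and 1 lower. The one called lower was lhcb3, with 4509 FPKM in q2 and 6817 FPKM in q1. The main pdk1 identifier had 10747 FPKM in q2 and 10645 FPKM in q1 and was not called. Epidermal and wax markers (2 of 4 matched) summed to 308 FPKM in q2 and 277 FPKM in q1. The marker levels at -4, +4 and +10 stand beside the members' differences there.

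BURP4, gl4a and PRP were high at -1 in both groups and were called lower in q2 at +4 and +10. BURP4 (GRMZM5G800586; chromosome 3, 200431763 to 200433851) had 446 FPKM in q2 and 408 FPKM in q1 at -1 and was not called, with a log2 change of 0.13 ± 0.33. At +4 the authors' deposited table lists BURP4 at 4.56 FPKM in q2 and 56.4 FPKM in q1, a log2 change of -3.63 ± 0.39 (adjusted p = 0.000288, Cuffdiff). At +10 BURP4 was at 3.74 FPKM in q2 and 9.85 FPKM in q1 and was lower again. At -4 it was higher in q2, with 2.73 FPKM in q2 and 0.935 FPKM in q1.

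The wax-related gene gl4a (GRMZM2G003501; chromosome 4, 166828994 to 166830916) was called in all 4 tables. In the authors' deposited tables it was at 1.95, 403, 12.7 and 3.81 FPKM in q2 at -4, -1, +4 and +10, against 0.763, 259, 62.3 and 9.54 FPKM in q1. It was higher in q2 at -4 and -1, by 1.35 ± 0.65 and 0.64 ± 0.34 on the log2 scale. It was lower in q2 at +4 and +10, with log2 changes of -2.29 ± 0.31 and -1.33 ± 0.38. The wax gene gl1, which is no member, had 299 FPKM in q2 and 267 FPKM in q1 at -1, and 43.0 FPKM in q2 and 107 FPKM in q1 at +4, where it was lower. The wax and lipid transfer list was filled by symbol and included neither gl4a nor any other member. At -1, 1 of its 13 tested genes was higher and 2 were lower, against 9.48% and 8.22% of all genes tested there. At +4, 3 were higher and 10 lower of 13, against 19.5% and 22.8%.

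PRP (GRMZM2G049915), the proline-rich protein gene, was among the most abundant members. It had 22.0, 477, 28.2 and 26.7 FPKM in q2 at -4, -1, +4 and +10 in the authors' deposited tables, against 22.5, 286, 67.2 and 47.3 FPKM in q1. Its level at -4 was nearly equal in both groups and was not called. It was higher in q2 at -1, by 0.74 ± 0.33 on the log2 scale, and lower at +4 and +10, with log2 changes of -1.25 ± 0.30 and -0.82 ± 0.26. The reference lists a splicing factor name among the synonyms of this gene, so its product is uncertain.

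The flavonoid gene fht1 (GRMZM2G062396) did not pass the test at -1, with 67.4 FPKM in q2 and 70.9 FPKM in q1, but was lower in q2 above it. In the authors' deposited tables fht1 had 1.85 FPKM in q2 and 5.81 FPKM in q1 at +4, and 1.16 FPKM in q2 and 3.81 FPKM in q1 at +10. Of the anthocyanin and flavonoid list, 6 of 12 identifiers were highest at -1. Of 7 tested there, 0 were higher and 3 lower in q2, against 9.48% and 8.22% of all genes tested (Cuffdiff). At an unadjusted p under 0.05, 0 of the 7 were higher too. The 3 lower genes were chi1, c2 and whp1. The chalcone synthase gene c2 had 82.5 FPKM in q2 and 130.4 FPKM in q1 at -1, and whp1, a second chalcone synthase gene, had 8.24 FPKM in q2 and 14.4 FPKM in q1.

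Both members known for defence were called lower in q2 at -1. AAMT1 (GRMZM2G039993; chromosome 9, 1995616 to 1997665) makes methyl anthranilate, a volatile that maize releases when herbivores feed. In the authors' deposited tables it was at 0.972, 26.7, 1.18 and 1.00 FPKM in q2 at -4, -1, +4 and +10, against 1.58, 277, 17.2 and 4.49 FPKM in q1. It was called lower at -1, +4 and +10, with log2 changes of -3.38 ± 0.41, -3.86 ± 0.58 and -2.16 ± 0.65, and not at -4. The cystatin gene cpi2 (GRMZM2G012160) was the member called lower in all 4 tables. It had 8.52, 241, 17.5 and 16.9 FPKM in q2 at -4, -1, +4 and +10, against 82.1, 689, 41.0 and 55.3 FPKM in q1. Its log2 changes in that order of segments were -3.27 ± 0.29, -1.52 ± 0.33, -1.23 ± 0.31 and -1.71 ± 0.27. In the list of peroxidases and defence genes, whose 1 member is cpi2, 4 genes were higher and 7 lower in q2 of 25 tested at -1. Lists of defence pathways without a member were also counted. Of the lipoxygenase and jasmonate list 15 of 21 tested genes were lower in q2 at -1 and 0 higher, and of the benzoxazinoid list 10 of 11 were lower and 0 higher (Cuffdiff; also 0 higher in each at an unadjusted p under 0.05). The list of TIFY repressor genes, also without a member, was mixed, with 6 lower and 2 higher of 21 tested. Of all genes tested at -1, 8.22% were called lower and 9.48% higher.

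Of the remaining members with a symbol, LPE1 was called at -1. ZCN6 (GRMZM2G132880; chromosome 4, 188385087 to 188386280), which had rank 3, had 197 FPKM in q2 and 159 FPKM in q1 at -1 in the authors' deposited table and was not called (log2 change 0.31 ± 0.36). Outside -1 it did not exceed 0.736 FPKM in either group. LPE1 (GRMZM5G858417) had 77.0 FPKM in q2 and 49.9 FPKM in q1 and was called higher (0.63 ± 0.37; the authors' adjusted p = 0.0277, Cuffdiff), a call lost at an adjusted p under 0.01. NAC131 (GRMZM2G178998) had 14.2 FPKM in q2 and 13.6 FPKM in q1 and was not called, and at +10 it was listed at 0 FPKM in q2 and at 0.0498 FPKM in q1. Of the transcription factor list, whose 1 member is NAC131, 32 genes were higher and 20 lower of 197 tested at -1. Of all genes tested at -1, 9.48% were called higher and 8.22% lower.

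At -1 the level was higher in q2 for 94 of 150 members and lower for 56, while all genes with a level there split into 50.7% higher and 49.3% lower. All 150 were tested, and 52 were called higher in q2 and 27 lower in the authors' deposited table, while 71 did not pass. Those shares were 34.7% and 18%, against 9.48% and 8.22% of all genes tested at -1, and 9.97% and 9.43% of the genes that could have been ranked. The choice of members used the mean of both groups at -1, so a gene raised in either group there had a better chance of entering. The balance of directions depended on it. Ranked on q2 values alone, the top 150 held 64 higher and 17 lower calls, and ranked on q1 values alone, 41 higher and 38 lower. With both groups required, by ranking on the lower value at -1 over the higher one elsewhere, the counts were 47 higher and 12 lower.

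In the list as ranked, rises called at -1 outnumbered falls and were smaller at the median. The balance of counts depended on the ranking, as given above. The 52 members called higher had a median of 1.80-fold, and 32 of them changed by less than 2-fold. The 27 members called lower were 2.57-fold higher in q1 at the median. Only 1 member was more than 10-fold higher in q2, and 4 were more than 10-fold higher in q1.

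**Figure D2:**
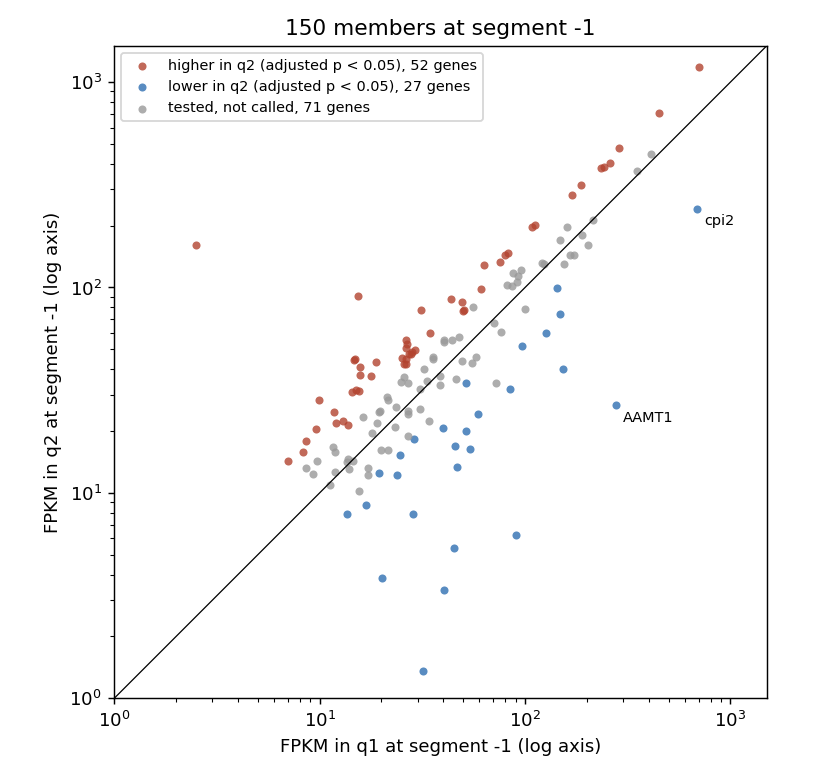
FPKM of the 150 members at segment -1 in q2 (vertical, log axis) and q1 (horizontal, log axis), with 52 genes called higher in q2 in red, 27 called lower in blue and 71 not called in grey. The line marks equal levels, and the red points form a narrow band above it, while the blue points spread further below it.

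The largest change in either direction belonged to identifiers with no symbol. GRMZM2G468111 had 160.4 FPKM in q2 and 2.51 FPKM in q1 at -1 in the authors' deposited table, 63.9-fold higher in q2 with an error of 0.59 on the log2 scale. It was lower in q2 at -4, with 1.03 FPKM in q2 and 4.62 FPKM in q1, and was the member that did not peak at -1 in q1. GRMZM2G380432 had 90.8 FPKM in q2 and 15.4 FPKM in q1 at -1. In the other direction, GRMZM2G329029 had 1.36 FPKM in q2 and 32.0 FPKM in q1, a log2 change of -4.55 ± 0.58, and AC148152.3_FG005 had 6.27 FPKM in q2 and 90.2 FPKM in q1. The next 8 rises ranged from 1.10 to 1.60 on the log2 scale and the next 8 falls, AAMT1 among them, from -3.58 to -1.71. In all, 17 members were under 10 FPKM in 1 of the groups at -1, and 3 of the 4 identifiers just named are among them.

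Among the 12 members with the highest rank value, q2 was above q1 in 12 of 12 at -1, by 1.17-fold to 1.81-fold, and 9 were called higher. Their levels at -1 ranged from 106 to 710.4 FPKM in q2 and from 75.1 to 449.6 FPKM in q1. Elsewhere they did not exceed 5.93 FPKM in q2 and 8.49 FPKM in q1. GRMZM2G019373, which ranked first, had 387 FPKM in q2 and 243 FPKM in q1 at -1 in the authors' deposited table. GRMZM2G351469, of rank 4, lies 32340 bp from it on chromosome 7 in the deposited coordinates and had 196 FPKM in q2 and 108.5 FPKM in q1. GRMZM2G000166, of rank 2, had 283 FPKM in q2 and 169 FPKM in q1.

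The share of rises changed down the ranking. Members ranked 1 to 50 had 28 higher and 5 lower calls at -1, those ranked 51 to 100 had 13 and 8, and those ranked 101 to 150 had 11 higher and 14 lower calls. At +4 the level was lower in q2 for 25, 43 and 45 genes of the same 3 blocks of 50. Only 8, 24 and 31 of them were tested there, of which 4, 17 and 24 were called lower. Ranks and levels at +4 are linked by the choice of members, since a gene with a higher level at +4 ranks lower. The levels of both groups at -1 also enter the rank. The trend of calls at -1 along the ranking, and the direction in the top 12, are therefore a description only.

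Outside -1 the members were low in both groups, but the side on which the remaining transcript lay differed between the groups. In q2 the level at -4 was 2.97% of that at -1 at the median, and the level at +4 was 0.652%. In q1 the level at -4 was 0.836% of that at -1 and the level at +4 was 1.84%. At +10 the medians were 0.357% in q2 and 1.04% in q1. The second highest segment was -4 for 110 members in q2 and for 42 in q1. It was +4 for 28 members in q2 and for 66 in q1.

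**Figure D3:**
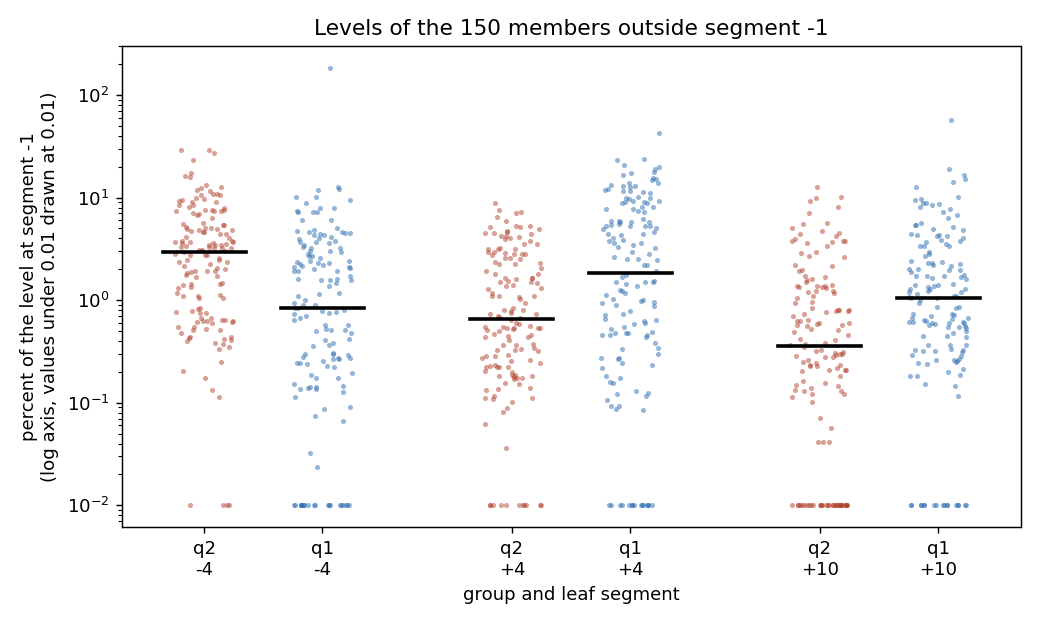
Level of each of the 150 members at segments -4, +4 and +10 as a percent of its own level at -1 (log axis), with q2 in red left of q1 in blue at each segment. Points are genes, bars are medians, and values under 0.01% are drawn at 0.01%. The q2 median is the higher one at -4 (2.97% against 0.836%) and the lower one at +4 and +10.

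Taken per gene, 122 of 150 members (81.3%) had a larger share of their peak left at -4 in q2 than in q1, against 62.5% of the genes that could have been ranked. A smaller share at +4 in q2 was seen in 117 (78.0%), against 52.6% of those genes, and 95 members (63.3%) had both, against 34.8%. These shares rest on group values without a test, and many are ratios of levels under 1 FPKM, where a group value carries little signal.

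At -4 the level was higher in q2 than in q1 for 117 of 150 members (78.0%), against 53.5% of all genes with a level there (46.5% were lower) and 61.2% of the genes that could have been ranked. Only 67 members were tested at -4, and a low gene can be tested because 1 group is high, so calls among them are not counts over all members. Of the 67, 28 were higher and 4 lower in q2 in the authors' deposited table, against 15.2% and 12.7% of all genes tested there, and 22.8% and 9.33% of the tested genes that could have been ranked. GRMZM2G125441 had 44.6 FPKM in q2 and 0.958 FPKM in q1 at -4, a log2 change of 5.54 ± 1.06, and was also the most abundant member at -1, with 1178 FPKM in q2 and 704 FPKM in q1. GRMZM2G034360 had 2.63 FPKM in q2 and 0.212 FPKM in q1 at -4. The next 3 rises with a defined ratio ranged from 2.89 to 3.27 on the log2 scale. GRMZM5G846305, also called higher, was at 9.95 FPKM in q2 and was listed at 0 in q1, so it has no fold and no place in this order. The largest fall at -4 was that of cpi2.

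Markers of leaf cell types also differed at -4. Mesophyll markers summed to 1789 FPKM in q2 and 1017 FPKM in q1, with 3 of 7 identifiers called higher, and bundle sheath markers without pDCT2 to 1077 FPKM in q2 and 499 FPKM in q1, with 3 of 3 called higher. Epidermal and wax markers summed to 48.5 FPKM in q2 and 42.2 FPKM in q1, with gl1 called higher. Secondary wall and xylem markers summed to 75.1 FPKM in q2 and 86.1 FPKM in q1. Among them only bk2 was called, with 2.57 FPKM in q2 and 0.463 FPKM in q1, so it was higher in q2 though the sum was lower. The part of these cell types in the members' levels at -4 was not tested.

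At +4 the difference ran the other way. The level was lower in q2 than in q1 for 113 of 150 members (75.3%) and higher for 35. Of all genes with a level at +4, it was lower in q2 for 53% and higher for 47%. Of the genes that could have been ranked, it was lower in q2 for 52.1%. Of 63 members tested at +4, 45 were lower and 0 higher in the authors' deposited table (Cuffdiff; 1 higher at an unadjusted p under 0.05), again with the limit that a member could be tested through its level in q1. All genes tested at +4 included 22.8% lower and 19.5% higher, those that could have been ranked 27.7% lower and 20.5% higher, and those under 10 FPKM 21.4% lower. The 55 tested members under 10 FPKM had 39 lower. GRMZM2G336824 had 0.473 FPKM in q2 and 17.9 FPKM in q1 at +4, a log2 change of -5.24 ± 0.97. GRMZM5G800014 had 0.662 FPKM in q2 and 14.5 FPKM in q1. GRMZM2G373589, also called lower, was listed at 0 in q2 and was at 1.15 FPKM in q1, so it has no fold.

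Some markers were lower in q2 at +4 as well. Epidermal and wax markers summed to 54.3 FPKM in q2 and 112 FPKM in q1, with gl1 called lower and ocl1 higher. The mesophyll marker lhcb3, an antenna protein gene, had 452 FPKM in q2 and 6364 FPKM in q1 at +4, and mdh6 had 1315 FPKM in q2 and 2145 FPKM in q1. The main pep1 and pdk1 identifiers were not tested at +4 and are each listed at 0 in 1 group, so no mesophyll sum is given. Bundle sheath markers without pDCT2 summed to 7756 FPKM in q2 and 9150.3 FPKM in q1, with ssu1 called lower. Secondary wall and xylem markers summed to 50.3 FPKM in q2 and 40.5 FPKM in q1, with 1 called higher and 2 lower. Most of that sum was the cellulose synthase gene cesa10, with 46.5 FPKM in q2 and 24.0 FPKM in q1, called higher. CesA12 and bk2 were both called lower, and bk2 had 2.91 FPKM in q2 and 14.7 FPKM in q1. The part of these cell types in the members' levels at +4 was not tested.

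At +10 most members were near 0 in both groups. The level was lower in q2 for 106 of 150 members (70.7%), and higher for 32, against 51.8% and 48.2% of all genes with a level there. Of 29 tested members 17 were lower and 2 higher in q2 in the authors' deposited table, against 22.3% and 21.5% of all tested genes and 25.1% and 23.9% of those that could have been ranked. The limit on tested members holds here too. Mesophyll markers at +10 summed to 29529 FPKM in q2 and 47240 FPKM in q1, with 1 identifier called higher and 3 lower. Epidermal and wax markers summed to 35.8 FPKM in q2 and 63.0 FPKM in q1, with gl1 called lower and ocl1 higher. The part of these cell types was not tested. GRMZM2G336824 was lower again, with 1.08 FPKM in q2 and 14.7 FPKM in q1, and GRMZM2G172214 had 3.44 FPKM in q2 and 38.4 FPKM in q1. The 2 members called higher were GRMZM2G062724, with 2.08 FPKM in q2 and 0.288 FPKM in q1, and GRMZM2G143883, with 4.60 FPKM in q2 and 2.16 FPKM in q1.

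**Figure D4:**
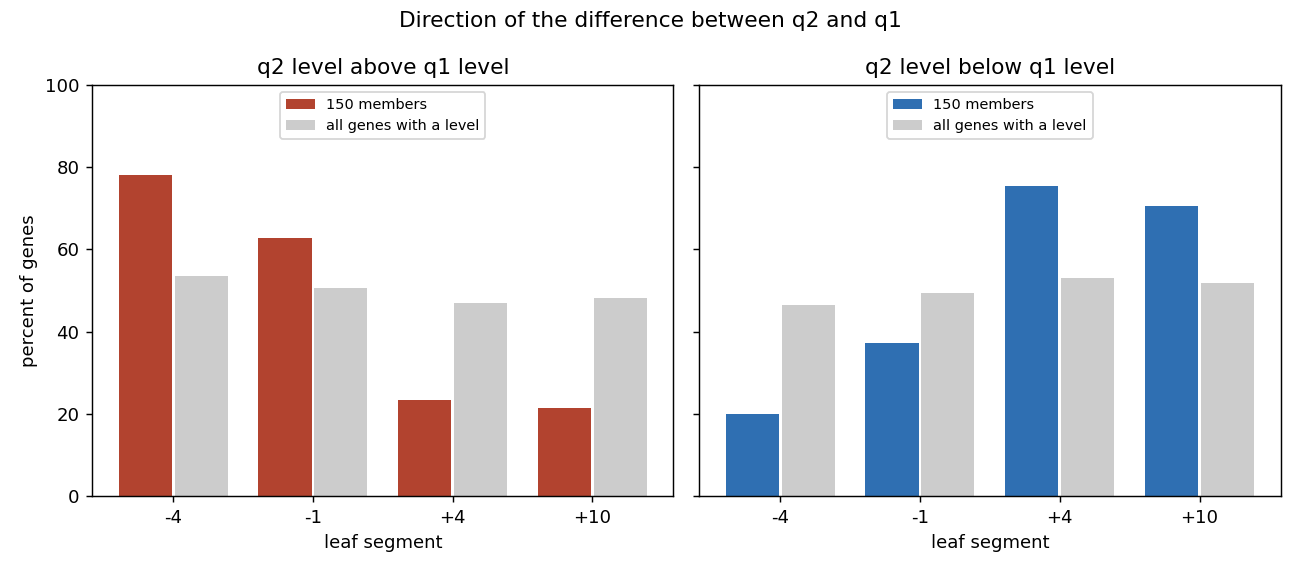
Percent of the 150 members (coloured) and of all genes with a level in the segment (grey) whose q2 level was above (left) or below (right) the q1 level, by leaf segment. The members stand at 78.0% above at -4 and 75.3% below at +4, while the grey bars stay between 46.5% and 53.5%.

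The same members could be higher in q2 at the base and lower mid-leaf. By level alone, 87 of 150 members (58.0%) were higher in q2 at -4 and lower at +4, and 6 had the opposite order, against 31.6% and 18.3% of the genes that could have been ranked. Calls exist for the 45 members tested at both -4 and +4, of which 16 were higher at -4 and lower at +4 in the authors' deposited tables and 0 had the opposite order (Cuffdiff; also 0 at an unadjusted p under 0.05). Of all 16392 genes tested in both tables, 4.64% were higher at -4 and lower at +4. Members near 0 can be tested through q2 at -4 and through q1 at +4, so nothing is read from that share. Whether the segments were cut from the same plants is not stated. GRMZM5G800014 had 16.2 FPKM in q2 and 2.44 FPKM in q1 at -4, but 60.0 FPKM in q2 and 126 FPKM in q1 at -1, and was called lower in q2 at -1 and +4. In 40 of the 150 members no call was made in any segment.

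The members were also split by their call at -1. Of the 52 members higher in q2 at -1, 47 had the higher level in q2 at -4 as well, and at +4 q2 was below q1 in 28 and above in 23. Of the 27 members lower at -1, q2 was below q1 in 26 at +4, while at -4 it was above q1 in 15 and below in 12. Of the 71 members not called at -1, q2 was above q1 in 55 at -4 and below q1 in 59 at +4. These 71 members are themselves a large part of the majorities of the whole list at -4 and +4.

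**Figure D5:**
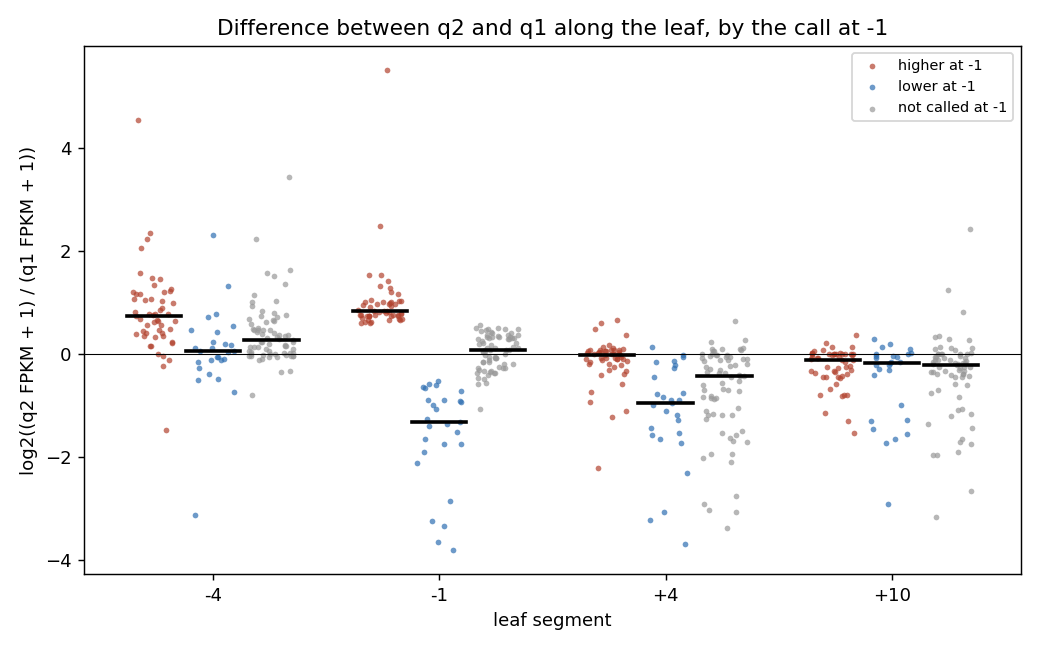
Difference between q2 and q1 as log2((q2 FPKM + 1) / (q1 FPKM + 1)) at the 4 segments for the 52 members called higher at -1 (red), the 27 called lower (blue) and the 71 not called (grey); points are genes and bars are medians. At +4 the medians are -0.01, -0.94 and -0.42, and at -4 they are 0.75, 0.06 and 0.29.

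The members were short genes and some lay close together. The locus spanned 1818.5 bp at the median in the deposited coordinates, against 3950 bp for the genes that could have been ranked. Chromosome 1 held 35 of the 150 (23.3%), against 16.3% of those genes. In 9 cases 2 neighbouring members lay within 100 kb of each other, 6 of them on chromosome 1, and in all 9 both genes had the higher level in the same group at -1. Neighbours were not counted among the genes that could have been ranked, so nothing is read from these cases. GRMZM2G006047, GRMZM2G005991 and GRMZM2G065640 lie in a row on chromosome 1, with 129, 53.0 and 29.3 FPKM in q2 at -1 and 63.4, 26.5 and 21.3 FPKM in q1. They make up 2 of the 9 cases, which share GRMZM2G005991. GRMZM2G304474 and GRMZM2G436020 lie 106 bp apart on chromosome 3, and the reference gives both identifiers to 1 gene, so they count that gene double. This pair is 1 of the 9 cases.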

How the data were processed

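The authors aligned reads with GSNAP and tested genes with Cuffdiff, per the submitters' processing notes, which give no versions here. The sources used here do not name the genome build, the strand setting or the treatment of shared reads. Each of the 4 deposited tables compares 2 groups in 1 segment and holds 1 value per group, FPKM by Cuffdiff's layout although the header names no unit, pooled by the authors over 3 libraries, a test statistic (score) and p-values with adjusted p-values (q-values), per the file headers. Log2 changes were recomputed from the deposited FPKM, because the deposited log2 column held spreadsheet errors, and the implied standard error is the log2 change over the statistic. Most deposited p-values were smaller than the normal tail of the statistic.

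The 150 members follow the ranking rule given in the report. Members and gene lists were chosen with earlier results of these data known. Named were pDCT2, the 12 highest ranks, the ranks beside the limit, members with a symbol, and the largest called changes (10 each way at -1, 5 elsewhere), of which at most 2 each way without a symbol are given by identifier; called members listed at 0 in 1 group have no ratio and were left out of that order. Of 39634 identifiers, 18775 matched the RefSeq gene table of assembly Zm-B73-REFERENCE-NAM-5.0; 86 matched members had no symbol there and 50 had no match. Lists were filled by symbol. The laccase list, the removal of AAMT1 from a list that one of its synonyms matched, and 2 alternatives were added after seeing the data. The ranking code was run on simulated data with strong peaks planted by the same fold in both groups. That run checks the code and says nothing about the members. Python 3.11.15, pandas 2.3.3, numpy 2.4.6, scipy 1.17.1, statsmodels 0.14.6 and matplotlib 3.10.9 were used.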

Additional observations from a re-analysis of the deposited data

Results flagged for a closer look

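Members called in opposite directions in a pair of segments were looked at again, and the difference of their log2 changes was tested for all genes with a statistic in both tables, from the implied standard errors with Benjamini-Hochberg adjustment (a normal approximation, whose p-values are not printed). In all, 20 members had opposite calls, in 39 pairs of segments, and 36 of the 39 differences passed an adjusted p of 0.05 while 3 did not. Since the pairs were chosen for 2 opposite calls, passing was close to fixed by the choice, and the values below are a description of those that passed in members named in the report.

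The wax-related gene gl4a changed direction between the lower and the upper segments. Its log2 change of q2 over q1 at +4 minus that at -4 was -3.64, and at +4 minus that at -1 it was -2.93. At +10 the differences were -2.68 against -4 and -1.96 against -1. BURP4 differed by -5.17 between +4 and -4 and by -2.94 between +10 and -4. PRP differed by -1.99 between +4 and -1 and by -1.56 between +10 and -1.

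Among identifiers with no symbol, GRMZM5G800014 was higher in q2 at -4 and lower at -1 and +4, with differences of -3.81 (-1 minus -4) and -7.19 (+4 minus -4). GRMZM2G172214 differed by -4.20 between +4 and -4 and by -4.36 between +10 and -4. GRMZM2G468111, lower in q2 at -4 and higher at -1, differed by 8.16. GRMZM2G143883 was lower in q2 at -4 and +4 and higher at +10, by 1.92 against -4 and by 4.52 against +4.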

How the results depend on the processing

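Read depth and values per library are unknown, so precision rests on the authors' test. No paired analysis was possible because the tables hold no values per library, and leaving out a library was not possible for the same reason. Of the counts and medians recomputed under the alternatives, 76 stayed within tolerance, 31 moved and 1 reversed. The tolerance was 1.5 times for a count and the median implied standard error of the members for a median, so values within it can still differ: calls higher at -4 were 40 with a ranking pseudocount of 5 FPKM, against 28. Ranking on q1 alone turned the median log2 change at -1, 0.31 as reported, to -0.007. A minimum of 2-fold left 20 higher and 17 lower members at -1.

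Calls lower in q2 at -4 (4 as reported) came to 8 with a pseudocount of 5 and to 1 when ranked on the lower group. Calls lower at -1 (27) came to 17 when ranked on q2 alone and to 12 on the lower group. Calls higher at +4 (0) came to 1 on q2 alone and 1 on the lower group. Calls higher at +10 (2) came to 6 with a pseudocount of 5, 4 on q1 alone, 1 on q2 alone and 4 on the lower group, and calls lower at +10 (17) to 30 with a pseudocount of 5 and 30 on q2 alone.

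Lists of other lengths give other counts by construction. The top 75 held 13 higher and 2 lower calls at -4, 7 lower at -1, 11 lower at +4, and 0 higher and 5 lower at +10. The top 300 held 84 higher and 14 lower calls at -4, 91 and 68 at -1, 8 and 124 at +4, and 15 and 60 at +10.

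Counting all 150 members with 1 FPKM added, tested or not, gave medians of 0.40 at -4, -0.25 at +4 and -0.18 at +10, against 1.04, -1.71 and -2.05 over the tested members. Between 120 and 142 members were kept by the alternative rankings of the same length. Of the calls on single genes, that of LPE1 at -1 was lost at an adjusted p under 0.01. The cause of these shifts was not tested.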
